A study of Homo sapiens with 12 samples.

Results

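The hypoxia and glycolysis genes described here are 36 genes listed by name, all found among the 27348 gene symbols of the deposited RNA-seq table and all placed on the human annotation, as 24410 symbols of the table were. They cover glucose uptake and the glycolytic enzymes (18 genes), the handling of pyruvate and lactate (6), oxygen sensing (4) and targets that low oxygen induces (8). The cells were K562, a line established from the blast crisis of a chronic myeloid leukemia, grown in RPMI medium with serum and given no drug. All of them had been infected with a lentiviral vector and selected with puromycin. The shCT cells carried the empty vector, and the sh#1 and sh#2 cells each carried a short hairpin RNA against the long isoform of PHF19. RNA was sequenced in 2 libraries of each of the 3 groups. Chromatin immunoprecipitation (ChIP-seq), with fly chromatin as a spike-in, had 1 library per antibody and group where it was done. It was done for PHF19 in all 3 groups, for MTF2 in shCT and sh#2 cells, and for IgG in shCT cells. The PHF19 peaks of shCT cells and the MTF2 peaks of shCT and of sh#2 cells were analysed here.

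Cells take up glucose through transporters of the SLC2A family and split it in glycolysis to pyruvate, which either enters the mitochondrion through pyruvate dehydrogenase or is turned into lactate and exported. When oxygen is scarce, the hypoxia-inducible factors HIF1A and EPAS1 escape the prolyl hydroxylases EGLN1 and EGLN3 and raise many genes of this path, through a short DNA element with the core ACGTG or GCGTG. PHF19 and MTF2 are Polycomb-like proteins that bind Polycomb repressive complex 2, which methylates lysine 27 of histone H3, and guide it to DNA rich in CpG. The comparisons below ask how strongly the genes were expressed, which of their promoters held PHF19, and where MTF2 lay in cells with and without full PHF19.

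What can be read from the files is limited. The RNA-seq table gives each gene the authors' mean of normalized counts over all 6 libraries, with control and depleted cells together, so a level has no replicate error here, the depth per library is unknown, and no change on PHF19 depletion, nor the depletion of PHF19 itself, was read from it. Each peak list comes from 1 library, so no difference between lists has a replicate check and none was tested. The heading inside the PHF19 list names sh4 beside the control sample, and the heading of the MTF2 list of sh#2 cells also names sh4, a name that the labels do not use. The labels were followed, and each statement on sh#2 cells rests on that list. The cells carried the marks of K562: all 9 markers of the line had a mean normalized count above the median of expressed genes, from 4053 for LMO2 to 171752 for HBG2, a fetal globin. Of the markers of other cells reported here, MS4A1 was listed at 0, CD34 stood at 0.162, ALB at 6.72 and CD3E at 13.6, whereas EPCAM, an epithelial adhesion molecule, stood at 3071.

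The glycolytic enzymes were among the most abundant transcripts of these cells. Within the 36, the 9 genes with a PHF19 or MTF2 peak at the promoter had a median count of 972, against 8200 for the others. That median of 972 still lay above the median of all expressed genes. A gene was taken as expressed from a mean normalized count of 10 upwards, which 14680 genes and all of the 36 reached. The median of the 36 was 6080, against 705 for all expressed genes, and 92.6% of expressed genes lay below it. Of the 36, 20 were in the top 10% of expressed genes, 7 in the top 1%, and 6 below the median. In bulk RNA, a gene that is high in few cells and one that is low in all of them cannot be told apart. Levels of different genes are compared below per kilobase (kb) of exon in the canonical transcript, a scale on which the 36 had a median of 1520 and all expressed genes a median of 236.

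In the glycolytic group, the median level per kb was 3900. GAPDH, which oxidises glyceraldehyde 3-phosphate, was the highest at 73808 per kb, from a mean normalized count of 94843. Next came the enolase ENO1 at 64060 per kb and the aldolase ALDOA at 43715 per kb. TPI1, the triose phosphate isomerase, stood at 22138 per kb. The rest of the group lay between the aldolase ALDOC, at 10602 per kb, and the phosphofructokinase PFKM, at 892 per kb, but for PFKFB3. Several of these genes have processed pseudogenes. The authors' alignment allowed at most 1 position per read, and the study states that reads without a unique position were discarded. Reads shared with a pseudogene may have been lost or split, so the levels of these genes are uncertain.

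The isoenzymes of a step differed widely in level. ENO1 was 67.5 times ENO2, the neuronal enolase, per kb. ALDOA was 4.12 times ALDOC, and the hexokinase HK1 was 6.4 times HK2, the form that hypoxia induces. When the exons of all transcripts were joined for the length, these ratios became 43.0, 2.87 and 3.52, with the same isoenzyme on top. The phosphofructokinases lay closer together, with PFKL, the liver form, at 1.55 times PFKP, the platelet form, and 1.99 times PFKM, the muscle form. PFKFB4 and PFKFB3 make and break fructose 2,6-bisphosphate, the activator of phosphofructokinase. PFKFB4 was 5.18 times PFKFB3, which at 234 per kb was the lowest of the group. The glucose transporters SLC2A3 and SLC2A1 were within 1.07 times of each other. None of these ratios has a replicate error.

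Among the genes of pyruvate and lactate, the levels lay far apart, from 30.0 to 51646 per kb. LDHA, the lactate dehydrogenase subunit that favours lactate, stood at 51646 per kb and its partner LDHB at 28926 per kb. PDHA1, the catalytic subunit of pyruvate dehydrogenase, stood at 1878 per kb. Its inhibitory kinases were lower, PDK1 at 297 per kb and PDK3 at 113 per kb. The canonical transcript of PDK1 has 14072 bp of exon. Its mean normalized count was 4176, and 87.7% of expressed genes lay below it on that scale. SLC16A3, the lactate exporter MCT4, had a mean normalized count of 78.0 and a level of 30.0 per kb. LDHA was 1720 times higher per kb. SLC16A1, another lactate transporter and not one of the listed genes, had a mean normalized count of 7850 and a level of 2092 per kb. The low level of SLC16A3 is therefore not that of lactate transporters at large. The ratio of PDK1 to PDK3 was 2.62, and 24.9 with the joined exons, because the exons of PDK3 add up to 1741 bp in the canonical transcript and to 17456 bp when joined.

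The 4 oxygen sensing genes were of middle level. EGLN3 stood at 598 per kb, EGLN1 at 582 per kb and HIF1A at 444 per kb. EPAS1, the alpha subunit of HIF-2, was the lowest of them at 189 per kb. The order of the hydroxylases turned with the joined exons, where EGLN3 was 0.468 times EGLN1 instead of 1.03 times. The hypoxia-induced genes ranged from the collagen prolyl hydroxylase P4HA1 at 4387 per kb and the transcription factor BHLHE40 at 3062 per kb to ADM, the vasodilator peptide adrenomedullin, at 14.2 per kb. VEGFA, the endothelial growth factor, stood at 1987 per kb, and the histone demethylase KDM3A at 1269 per kb. ANKRD37, NDRG1 and CA9, a carbonic anhydrase, had 200, 146 and 188 per kb. With a mean normalized count of 21.1, ADM was the lowest of all 36 genes, and 9.09% of expressed genes lay below it, although SLC16A3 was below it per kb of joined exons, at 8.44 against 9.08.

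**Figure D1:**
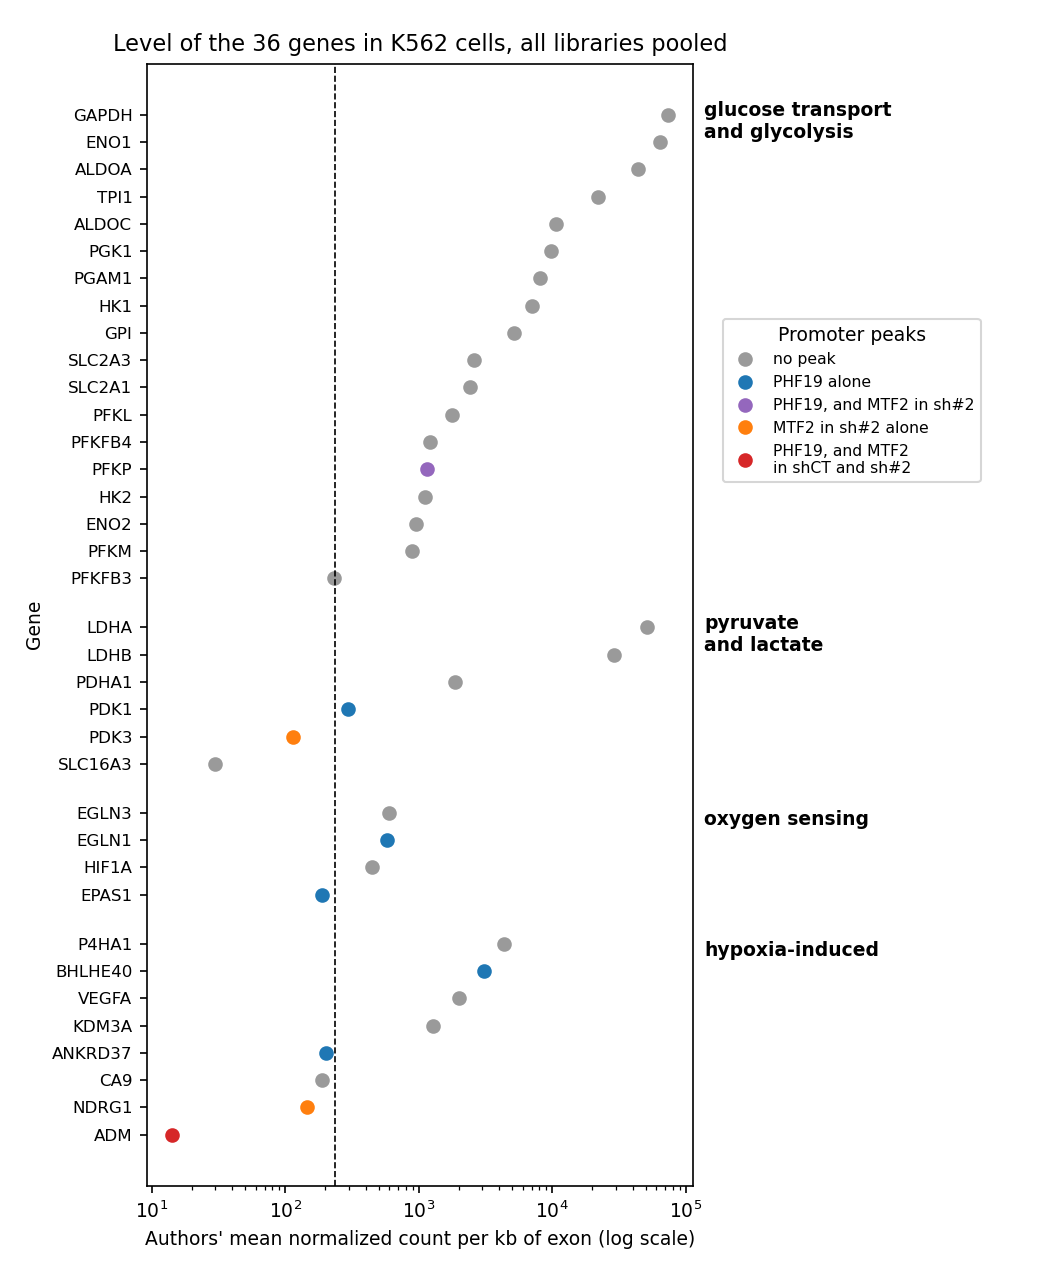
Level of each of the 36 genes as the authors' mean normalized count over all 6 RNA-seq libraries, per kb of exon in the canonical transcript (log scale), in 4 groups by role; colours give the lists with a peak at the promoter and the dashed line is the median of expressed genes (236). The 5 genes with the highest values, from GAPDH to LDHB, had no peak, and ADM, the lowest at 14.2, had one in all 3 lists; points have no error bars because the table pools the libraries.

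PHF19 peaks were found at the promoters of 7 of the 36 genes in shCT cells (19.4%), against 7.81% of all 24410 genes placed, where a promoter is 2.5 kb on each side of any annotated transcription start site (TSS). They were ADM, ANKRD37 and BHLHE40 among the induced genes, EGLN1 and EPAS1 in the oxygen sensing group, and the kinase PDK1. Of the 18 glycolytic genes, PFKP alone had one. The 36 genes had more annotated starts, a median of 10, than expressed genes at large, with a median of 7, and so offered more promoter to a peak. With the canonical start alone the count was again 7, against 6.76% of all genes. Only 3 of the 7, ADM, EGLN1 and EPAS1, had a peak at or above the median score of the list, against 4.83% of all genes at that score. Among the 14033 expressed genes placed, 8.14% had a PHF19 peak. The study's methods also ask for a minimum of tags in a peak, which could not be applied because the list holds no tag counts. The study reports fewer PHF19 peaks than this list holds, so the list is less strict than the study's own set. Which of the 7 genes would keep a peak under that minimum is therefore unknown. The peaks of PDK1, BHLHE40, ANKRD37 and PFKP were below the median score of the list.

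The peaks of ADM were the strongest. ADM lies on chr11:10326620-10328944 (GRCh37, plus strand). The PHF19 peak at chr11:10322179-10326526 was 4348 bp wide, ended 94 bp upstream of the ADM start and ranked 88 of 5621 by score. The MTF2 peak of shCT cells lay within it, 2477 bp wide and rank 618 of 12502. In sh#2 cells the MTF2 peak was 3296 bp wide and ranked 774 of 18287. The PHF19 peak and that of MTF2 in sh#2 cells also covered a start of SBF2, the neighbour on the other strand, so the lists do not tell which of both genes the peaks belong to.

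The other PHF19 peaks ranked from 1235 to 5372. That of EGLN1 ranked 1235 and lay at chr1:231560131-231561650, 2098 bp upstream of the start, and it dropped out with a promoter of 1 kb. That of EPAS1, at chr2:46524584-46527754, ranked 2151 and began 38 bp downstream of the canonical start. PDK1 had a peak of 2751 bp, rank 3274, at chr2:173418797-173421547, which covered 8 of its annotated starts. The peak of BHLHE40, at chr3:5018848-5020921, ranked 3538 and ended 201 bp upstream of the gene, and it also lay at a promoter of BHLHE40-AS1. Those of ANKRD37, chr4:186317047-186317669, and PFKP, chr10:3108164-3109336, ranked 5311 and 5372 of 5621 with scores of 51.45 and 51.02, close to the lowest of 50 in the list. Within the ANKRD37 peak lay a start of LRP2BP, transcribed from the other strand.

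**Figure D2:**
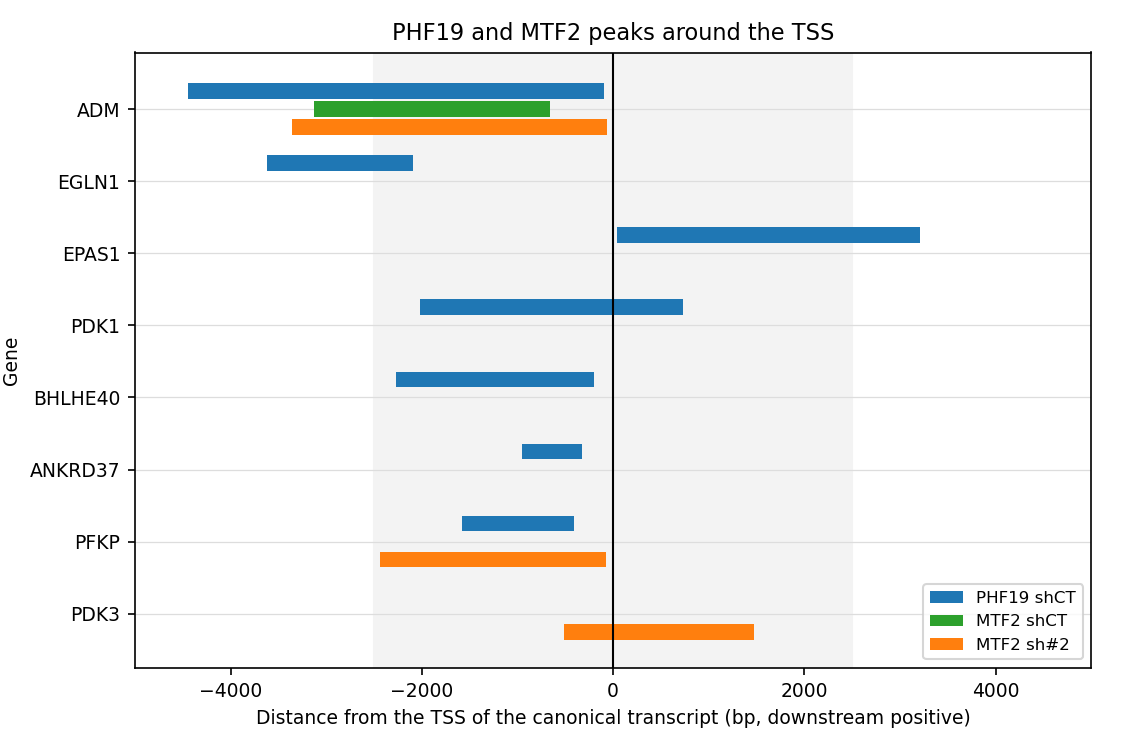
Position of the PHF19 peaks of shCT cells and the MTF2 peaks of shCT and sh#2 cells around the TSS of the canonical transcript of 8 genes (bp, downstream positive); bars run from the start to the end of a peak and the shaded band is the promoter of 2.5 kb on each side. ADM had a bar in all 3 lists, PFKP in 2, and the other genes in 1; NDRG1, whose peaks lay at least 44854 bp downstream, is not drawn.

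The sequences that the peaks reached are shown for the 5 genes with a RefSeq promoter, the 250 bases before to 50 after a RefSeq start, at least partly under a peak. For PFKP the RefSeq start nearest to the canonical one lay 422 bp away, and no RefSeq promoter of it shared bases with a peak, although the MTF2 peak of sh#2 cells ended 75 bp upstream of the canonical start. The sequences are given on the strand of the gene, located on GRCh37 by exact match, with the core ACGTG or GCGTG in capitals on either strand (CACGT and CACGC are the cores of the other strand). Of the ADM promoter, chr11:10326370-10326669, 157 bases lay under the PHF19 peak and 186 under the MTF2 peak of sh#2 cells. Of those of BHLHE40, chr3:5020872-5021171, and EPAS1, chr2:46524296-46524595, 50 and 12 bases lay under PHF19. The PDK1 promoter, chr2:173420568-173420867, lay under PHF19 in all of its 300 bases, and that of PDK3, chrX:24483153-24483452, in all of its 300 bases under MTF2 in sh#2 cells. All are on the plus strand.
ADM: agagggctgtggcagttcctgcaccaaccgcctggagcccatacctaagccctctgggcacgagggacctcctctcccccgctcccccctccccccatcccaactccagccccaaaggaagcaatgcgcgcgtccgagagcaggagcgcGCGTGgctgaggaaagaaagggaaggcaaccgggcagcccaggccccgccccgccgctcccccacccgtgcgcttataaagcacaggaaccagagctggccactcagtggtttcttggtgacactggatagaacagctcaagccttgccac
BHLHE40: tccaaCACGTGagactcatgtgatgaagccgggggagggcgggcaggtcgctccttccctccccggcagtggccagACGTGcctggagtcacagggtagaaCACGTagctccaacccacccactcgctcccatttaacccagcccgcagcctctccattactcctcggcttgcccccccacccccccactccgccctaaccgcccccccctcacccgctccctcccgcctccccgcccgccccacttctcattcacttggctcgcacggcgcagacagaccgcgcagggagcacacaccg
EPAS1: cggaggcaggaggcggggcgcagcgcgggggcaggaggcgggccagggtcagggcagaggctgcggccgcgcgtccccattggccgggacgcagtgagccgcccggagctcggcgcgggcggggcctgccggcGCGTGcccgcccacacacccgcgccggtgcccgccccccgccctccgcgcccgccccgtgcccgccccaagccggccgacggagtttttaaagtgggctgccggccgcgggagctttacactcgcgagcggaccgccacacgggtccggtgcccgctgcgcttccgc
PDK1: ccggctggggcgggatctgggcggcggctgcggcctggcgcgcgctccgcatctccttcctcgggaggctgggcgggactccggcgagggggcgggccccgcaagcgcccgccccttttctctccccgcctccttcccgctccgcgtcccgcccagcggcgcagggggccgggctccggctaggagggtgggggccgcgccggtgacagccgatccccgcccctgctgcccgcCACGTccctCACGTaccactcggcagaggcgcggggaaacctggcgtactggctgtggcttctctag
PDK3: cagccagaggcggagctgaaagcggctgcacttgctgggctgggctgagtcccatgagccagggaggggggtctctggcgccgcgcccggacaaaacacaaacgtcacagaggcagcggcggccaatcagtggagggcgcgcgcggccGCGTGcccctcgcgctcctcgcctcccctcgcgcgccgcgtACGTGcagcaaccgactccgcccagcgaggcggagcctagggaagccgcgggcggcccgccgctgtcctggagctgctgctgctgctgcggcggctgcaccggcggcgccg

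The core was common to the group. Of the 33 genes with a promoter in the RefSeq table (all but NDRG1, SLC2A3 and VEGFA), 31 held ACGTG or GCGTG on either strand, as did 52.4% of all 27305 genes in that table. Counted over promoters, 68.9% of the 61 promoters of these genes held it, against 48.4% of all 35116. With ACGTG alone, the figures were 20 genes, against 24.9% of all genes. The promoters of the group were also richer in CpG, which both cores contain, with a median of 0.752 for the observed over the expected number of CpG against 0.579 for all promoters, and a median G and C content of 69.0% against 58.7%. The part of base composition in the motif counts was not tested. A match is a stretch of letters and does not show binding.

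The DNA under the PHF19 peaks held more CpG than the median PHF19 peak at 6 of the 7 genes. The median of observed over expected CpG was 0.32 over all 5621 PHF19 peaks, and 0.55 over the 2115 at promoters. ANKRD37, at 1.01, was above 99.5% of the list, PDK1 stood at 0.79, EPAS1 at 0.76, PFKP at 0.69, BHLHE40 at 0.64, and ADM at 0.55, about the median of promoter peaks. EGLN1 was the exception at 0.2, and its peak was also the one farthest from its start.

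**Figure D3:**
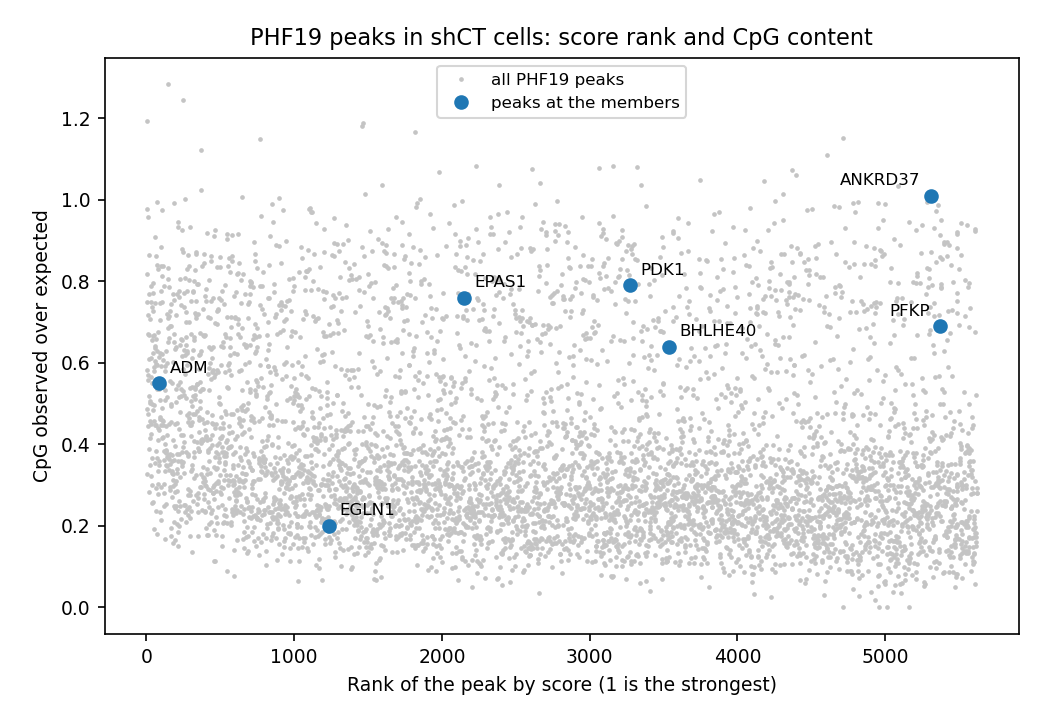
Observed over expected CpG (vertical axis, a ratio) against the rank by score (horizontal axis, 1 is the strongest) of the 5621 PHF19 peaks of shCT cells, in grey, with the peaks at 7 genes in blue. EGLN1 lay at 0.2, under the median of 0.32, and the other named peaks between 0.55 and 1.01, at ranks from 88 to 5372.

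Fewer of these genes had an MTF2 peak than a PHF19 peak in control cells. In shCT cells an MTF2 peak lay at the promoter of ADM alone, 1 of 36 genes (2.78%), against 11.0% of all genes. In sh#2 cells MTF2 peaks lay at 4 of 36 (11.1%), ADM, NDRG1, PDK3 and PFKP, against 15.5% of all genes. Of these, NDRG1, PDK3 and PFKP had a peak in sh#2 and none in shCT cells. They were 3 of 36 (8.33%), against 5.14% of all genes and 3.38% of the expressed genes placed. The reverse held for 0 of 36, against 0.68% of all genes. The list of sh#2 cells was longer as a whole, with 18287 peaks over 63.2 Mb against 12502 over 29.0 Mb, and the library behind it was not compared in depth. With as many of the strongest peaks in both lists, the counts were again 4 and 3, against 13.2% and 3.36% of all genes. Among the expressed genes alone, MTF2 peaks lay at 7.46% of promoters in shCT and 10.3% in sh#2 cells. The shares were lower at the levels of most of the 36. With a mean from 1000 to 10000, as 17 of them had, they were 2.16% and 3.18% of all genes. Over 10000, as for 12 of them, they were 1.3% and 1.49%. Of the genes in both classes, PFKP had MTF2 in sh#2 cells and none had it in shCT cells.

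PFKP, PDK3 and NDRG1 gave different pictures. At PFKP the MTF2 peak of sh#2 cells, chr10:3107300-3109665, was 2366 bp wide, ranked 2986 and covered all 1173 bp of the PHF19 peak of shCT cells. At PDK3, where the nearest PHF19 peak lay 552 kb from the canonical start, the sh#2 peak at chrX:24482894-24484873 ranked 4552 and ran across the start, from 509 bp upstream to 1470 bp downstream. PDK3 also had a weak MTF2 peak of shCT cells inside the gene, 642 bp wide and rank 12349 of 12502, so that over the whole gene it was not without MTF2 in control cells. NDRG1, a gene of differentiation and stress, had 3 sh#2 peaks, ranks 6553, 10995 and 16877, near starts of other transcripts, at least 44854 bp downstream of its canonical start, and had none with the canonical start alone. In bases, 1844 of the 661860 promoter bases of the 36 genes lay under MTF2 in shCT cells (0.279%, against 2.77% for all genes) and 11290 in sh#2 cells (1.71% against 5.28%). For PHF19 the figure was 12251 bases (1.85% against 1.37%), but the order turned with peaks at or above the median score, with 5630 bases (0.851% against 0.979%).

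Most of the PHF19 peaks at these genes had no MTF2 beside them. Of the 7 peaks, 1 (ADM) overlapped an MTF2 peak of shCT cells, and 2 (ADM and PFKP) one of sh#2 cells. Of all 2115 PHF19 peaks at promoters, 58.9% and 66.4% did. ANKRD37, BHLHE40, EGLN1, EPAS1 and PDK1 had PHF19 and no MTF2 in either list. They were 5 of 36 genes (13.9%), against 2.27% of all genes and 3.44% of the expressed genes placed. Overlap with MTF2 moved with the score of the PHF19 peak: among promoter peaks below the median score, 40.6% overlapped MTF2 in shCT cells, against 71.8% at or above it. For sh#2 cells the shares were 50.3% and 77.8%. Level is a further limit, because 4 of the 7 genes had a mean normalized count from 1000 to 10000. At that level PHF19 lay at 5.85% of all genes, and MTF2 at 2.16% in shCT and 3.18% in sh#2 cells. MTF2 was thus the rarer of both there among all genes. The part of level in the overlap was not tested. Of the 7 peaks here, 4 were below the median, of which 0 overlapped MTF2 in shCT and 1 in sh#2 cells, and 3 were at or above it, of which 1 overlapped MTF2 in each list. The controls of the assay, ATF3 and CDKN1A, had a promoter peak in all 3 lists.

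Genes with a peak had a lower median level than those without. The 9 genes with a promoter peak in any list had a median level of 200 per kb, from 14.2 to 3062, and the 27 without one had 2420, from 30.0 to 73808. Among all expressed genes, MTF2 had a promoter peak in shCT cells at 18.3% of those with a mean of 10 to 100 and at 1.3% of those over 10000. For PHF19 the shares were 13.3% and 5.4%. Genes with a mean under 10 did not continue this order, with 15.9% for MTF2 and 7.37% for PHF19. Of the 12 genes here with a mean over 10000, 0 had a peak in any list. Of the 17 with a mean from 1000 to 10000, 4 had PHF19 (BHLHE40, EGLN1, PDK1 and PFKP), against 5.85% of all genes at that level. No gene without a peak had a PHF19 peak nearer than 13.4 kb to its canonical start, the distance at VEGFA.

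**Figure D4:**
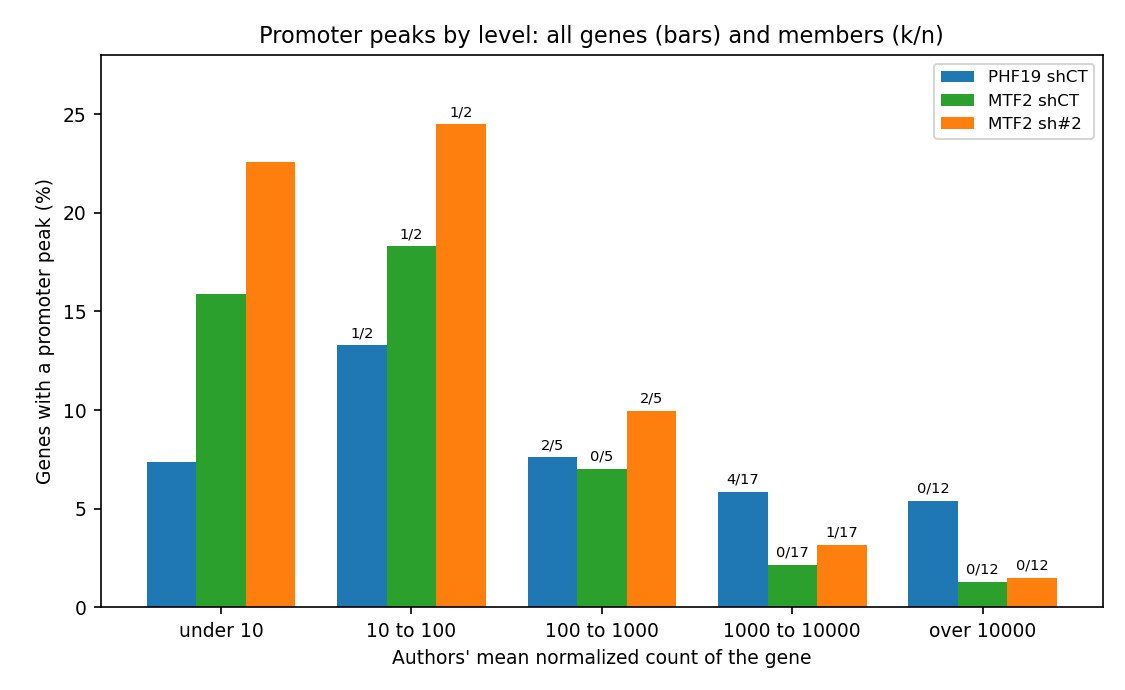
Percent of all placed genes with a promoter peak (vertical axis) by class of mean normalized count (horizontal axis), for PHF19 in shCT and MTF2 in shCT and sh#2 cells; numbers over the bars give the hypoxia and glycolysis genes with a peak of those in the class. For MTF2 in shCT cells the bars fell from 18.3% at 10 to 100 to 1.3% over 10000, where 0 of 12 of these genes had a peak.

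Other genes of the same paths, 50 in a list that included the rest of glycolysis, the pyruvate dehydrogenase complex and hypoxia targets, had PHF19 at 3 promoters, against 7.81% of all genes. They were SLC2A2, the glucose transporter of liver and pancreas, with a mean normalized count of 0.300, DLD, the dehydrogenase subunit E3, with 11673, and VHL, the ubiquitin ligase subunit that marks the HIF proteins for destruction, with 3941. SLC2A2 also had MTF2 in both lists, and DLD and VHL in neither. MTF2 lay at 4 of the 50 in shCT cells (HK3, GAPDHS, SLC2A2 and HIF3A), against 11.0% of all genes, and at 7 in sh#2 cells, against 15.5%. BNIP3, EPO and STC2 had it in sh#2 cells alone, 3 of 50 against 5.14% of all genes. These counts lie near the background.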

How the data were processed

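RNA-seq (6 libraries) and ChIP-seq (6 libraries) of K562 cells were grouped by their labels. The RNA-seq reads had been aligned to hg19 using TopHat. The authors deposited 1 DESeq2 table, whose mean normalized count over all libraries is used here as a score. Its other 5 columns hold the authors' own comparison of both hairpins with shCT (fold changes, errors, test statistics and p-values) and were not used. Mapping of the ChIP-seq reads to hg19 together with dm3 relied on Bowtie, and MACS called the peaks. The deposited lists give positions and a score of at least 50 with no named scale, and no tag counts. Tool versions: not given in the sources used here. The values pool the libraries, so no test was run and the precision of a level is unknown.

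Genes were placed on GRCh37 (the assembly of hg19) by GENCODE 44, 23366 by symbol and 1044 by an older symbol from RefSeq (GRCh38.p14 table, used for names). A peak was at a promoter when it shared at least 1 bp with 2.5 kb on each side of a TSS. Coordinates are 1-based. The genes named with values were those with a peak and the 6 highest and 6 lowest per kb, and other members and SLC16A1 were added to complete each role. The members and lists were chosen with earlier results of these data known. Python 3.11.15, numpy 2.4.6, pandas 2.3.3 and matplotlib 3.10.9 were used. On simulated peaks, 200 of 200 planted promoter peaks among 2000 genes were recovered, with 0 false. Alternatives were stricter scores and overlaps, other promoters, other lengths and other starts. Not analysed here were the IgG library and PHF19 ChIP-seq of both hairpins. A marker gene of other cells is not reported here.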

Additional observations from a re-analysis of the deposited data

How the results depend on the processing

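With peaks at or above the median score of their list, PHF19 lay at 3 of the 36 genes instead of 7 (4.83% of all genes), and the promoter bases fell from 12251 to 5630 under PHF19 and from 11290 to 6938 under MTF2 in sh#2 cells. With the region from 2.5 kb upstream to the transcript end, 2 genes (ADM and PDK3) had MTF2 in shCT cells instead of 1 (13.4% of all genes). With a promoter of 1 kb, the bases were 7270 under PHF19 and 344 instead of 1844 under MTF2 in shCT cells. The median gene exceeded 92.6% of expressed genes, 96% of all genes in the table, 87.3% per kb and 82.7% per kb of joined exons. The joined exons, the canonical and coding starts and the alternatives for PHF19 bases were chosen after seeing the data. With ACGTG alone the motif count was 20 instead of 31. The other counts of the 36 genes and of their promoter bases stayed within 1.5 times of their value under the alternatives run. No paired analysis was possible because the table pools the libraries and each ChIP-seq condition has 1. Replicates could not be left out for the same reason.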
